A study of Mus musculus with 12 samples.

Results

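The libraries labelled mTert_reactivated_Generation4 were set against those labelled mTert_HET, all made from unsorted crypt epithelium of the large intestine. Of the 12 libraries of the series 4 belong to this comparison, 2 reactivated and 2 heterozygous, and they were taken by their labels. Both groups are of C57BL/6 background and 3 months of age. The heterozygous libraries are described as Unsorted_G0 and the mTert_reactivated_Generation4 ones as Unsorted_G4tam. No source used here gives the means of reactivation or the cells it reached. The group mTert_NULL_Generation4 (Unsorted_G4, 2 libraries, same background, age and tissue) was fitted with them and is quoted beside the results as null G4. The libraries of a group are labelled biological replicates with no animal named, so p-values below reflect the spread between libraries, and that spread could be technical.

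Tert encodes the reverse transcriptase of telomerase, which extends chromosome ends, and mice bred without it have shorter telomeres in each generation. Short telomeres are sensed as DNA damage and signal through Trp53, and inflammation of the gut has been linked to them. Crypts are pits of epithelium with stem cells at their base, and their cells can be induced by interferon to display antigen on major histocompatibility complex (MHC) molecules. MHC class II presents peptides to helper T cells and is otherwise mainly a feature of dendritic cells, macrophages and B cells.

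Expression was deposited as RPKM, which scales reads to gene length and library depth, and levels below are RPKM unless a log2 difference is named. Differences are on the log2(RPKM + 1) scale with their standard error (SE) over the 6 unsorted libraries, and they understate changes of genes with low RPKM. Tert itself was at 0.459 and 0.251 in the heterozygous libraries, 0.00778 and 0.0377 in null G4, and 0.0171 and 0.0311 in the libraries labelled reactivated. The reactivated values fell inside the null G4 range and under both heterozygous values, so the targeted gene goes against the label, although Tert was too low for a test. Directions below are those of the libraries labelled reactivated, which are called reactivated 1 and 2 by their label alone. The files imply between 74.8 and 103 (times 1e6) reads for each unsorted library, and 10633 to 11162 genes reached 1 RPKM. The 2 libraries labelled reactivated differed from each other in sex, by Y-linked genes and Xist: reactivated 1 was female like both null G4 libraries, and reactivated 2 was male like both heterozygous libraries. They also differed in some clock genes, as described further on. The mitochondrial ribosomal RNAs took 19.2% and 27.3% of summed RPKM in the heterozygous libraries, and 10.8% and 16.7% in the ones labelled reactivated. The part of sex, clock phase and these RNAs in the differences was not tested beyond the refits quoted, and counts of passing genes are therefore also given without a library where that changes them. In bulk tissue, fewer cells of a type and less RNA per cell cannot be told apart.

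Of 11464 genes tested, 146 differed between the libraries labelled reactivated and the heterozygous ones (1.27%, limma with Benjamini-Hochberg adjusted p below 0.05), 129 higher and 17 lower. A gene was called far from the heterozygous level when it passed, differed by at least 1 on the log2 scale and had both libraries labelled reactivated on the same side of both heterozygous ones. There were 129 far genes (1.13%), 114 higher (0.994%) and 15 lower (0.131%). Zbp1 passed at a log2 difference of 0.90 and was just outside that threshold, and Ccl28 at 1.02 was just inside it. Leaving out reactivated 1 gave 124 passing genes (1.1%, 0.91% higher and 0.186% lower). Leaving out reactivated 2 gave 2344 (20.6%, 19.8% higher and 0.773% lower), and counts without that library are to be read against these shares. All tested genes had a median log2 difference of 0.22, 0.36 in reactivated 1 and 0.08 in reactivated 2. Setting that median to 0 by median scaling gave 71 genes higher and 23 lower, and quantile normalization gave 65 higher and 23 lower. At the other end, 9797 genes (85.5%) were near the heterozygous level, with a 95% interval of the difference inside -1 to 1. In 652 genes (5.69%) both libraries labelled reactivated lay between the heterozygous values.

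**Figure D1:**
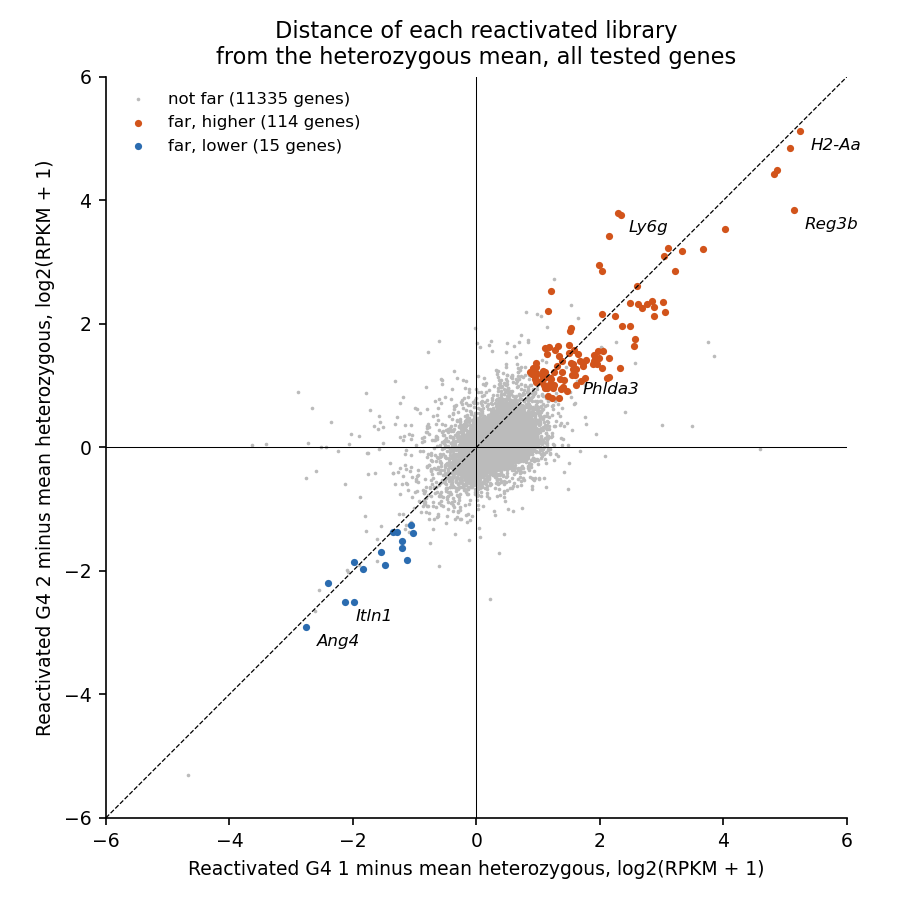
Each point is 1 of 11464 tested genes, with the difference of reactivated G4 1 from the mean of the heterozygous libraries on the x axis and that of reactivated G4 2 on the y axis, both in log2(RPKM + 1). The 114 far higher genes (orange) and 15 far lower genes (blue) lie in opposite corners by the definition of far. Since both axes subtract the same heterozygous mean, the shape of the cloud is partly shared by construction.

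The genes farthest from the heterozygous level were those of MHC class II. H2-Aa (chr17:34282744-34287823), the alpha chain of the class II molecule I-A, was at 1.94 and 3.59 in the heterozygous libraries and at 138 and 126 in the ones labelled reactivated. Both reactivated values were within the null G4 values of 122 and 150 and far above both heterozygous values. The log2 difference was 5.18 ± 0.26 (adjusted p = 9.4e-05), and the mean RPKM was 47.8 times higher. Its partner beta chain H2-Ab1 (chr17:34257689-34269419) went from 3.58 and 5.78 to 161 and 125, a log2 difference of 4.68 ± 0.27 (adjusted p = 0.00010). H2-Eb1 (chr17:34305867-34316674), the beta chain of I-E, was at 3.19 and 4.42 in heterozygous and 134 and 102 in libraries labelled reactivated (4.63 ± 0.25, adjusted p = 9.4e-05). Cd74 (chr18:60803848-60812652), the invariant chain that fills the class II groove during assembly, was at 13.7 and 18.4 against 569 and 483 (4.96 ± 0.26, adjusted p = 9.4e-05). In all 4 genes the groups lay far apart and the libraries labelled reactivated were close to each other.

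The machinery that loads and switches on class II moved in the same direction. H2-DMb1, a chain of the peptide exchange factor H2-M, was at 0.817 and 1.13 in heterozygous libraries and 30.9 and 21.7 in ones labelled reactivated (3.77 ± 0.21, adjusted p = 0.00010). The other chain, H2-DMa, was at 1.01 and 1.67 against 20.6 and 15.8 (3.04 ± 0.22, adjusted p = 0.00031). Ciita (chr16:10480059-10528418), the coactivator on which class II transcription depends, was at 0.476 and 0.558 against 8.34 and 6.61, with null G4 at 7.23 and 7.53 (2.47 ± 0.15, adjusted p = 0.00015). Of 16 listed class II genes 12 were tested, 7 passed and all 7 were higher; the same number passed without reactivated 1 and without reactivated 2. The 5 that did not pass were the protease Ctss, the reductase Ifi30 and the 3 subunits of the RFX factor that binds class II promoters. Rfx5 was at 1.36 and 1.29 in heterozygous and 1.66 and 1.30 in libraries labelled reactivated, a log2 difference of 0.09 that turned to -0.12 under median scaling, and Rfxank and Rfxap differed by 0.16 and 0.17. The list's median difference was 2.53 above the median of all tested genes, 2.56 in reactivated 1 and 2.51 in reactivated 2.

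Markers of macrophages and dendritic cells were low, and their sum in the libraries labelled reactivated lay around that in the heterozygous ones. Of 16 macrophage and dendritic cell markers 1 was expressed enough to be tested, and their summed RPKM was 2.83 and 3.86 in heterozygous and 3.53 and 1.88 in libraries labelled reactivated. The tested marker, complement gene C1qa, was at 1.50 and 2.18 against 0.657 and 0.260 and did not pass (-0.96 ± 0.24, adjusted p = 0.13). The dendritic cell genes Flt3 and Xcr1 were listed at 0.0113 or less in every unsorted library, Zbtb46 at 0.108 or less and Itgax at 0.373 or less. The B cell gene Ms4a1 was at 0.0664 and 0.143 against 0.228 and 0.0471. The sum of 12 B and plasma cell markers was higher, at 5.02 and 5.45 in heterozygous and 10.9 and 17.3 in libraries labelled reactivated. The part of these cells in the class II difference was not tested.

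Promoters were available from RefSeq (GRCm38.p6, 250 bases before to 50 after the start) for H2-Aa and H2-Eb1 of the class II genes and are printed because these genes lie farthest from the heterozygous level. The capitals mark the Y box, the inverted CCAAT element CTGATTGG of class II promoters, searched on both strands. The H2-Aa window is chr17:34287774-34288073 on the minus strand and the H2-Eb1 window chr17:34305617-34305916 on the plus strand, both 5′ to 3′.
H2-Aa: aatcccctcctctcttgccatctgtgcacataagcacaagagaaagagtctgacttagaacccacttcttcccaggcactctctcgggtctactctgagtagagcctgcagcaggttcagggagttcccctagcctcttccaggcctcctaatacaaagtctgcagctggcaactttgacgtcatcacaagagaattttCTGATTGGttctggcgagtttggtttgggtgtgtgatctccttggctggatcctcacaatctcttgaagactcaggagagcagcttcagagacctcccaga
H2-Eb1: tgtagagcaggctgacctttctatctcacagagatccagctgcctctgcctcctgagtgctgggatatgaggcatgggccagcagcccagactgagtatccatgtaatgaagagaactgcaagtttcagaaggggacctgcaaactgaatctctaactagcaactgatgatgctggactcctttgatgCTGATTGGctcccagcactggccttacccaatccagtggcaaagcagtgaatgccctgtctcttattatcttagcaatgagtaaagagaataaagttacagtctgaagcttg
The box begins 51 bases before the start in H2-Aa and 62 bases before it in H2-Eb1. It was found in 4.10% of 32851 promoters and in 6.52% of the 7930 tested genes with one. Among the 79 far higher genes with a promoter 11 held it (13.9%), namely H2-Aa, H2-Eb1, H2-D1, H2-K1, H2-Q6, H2-Q7, Tap1, Psmb9, Ly75, Hif1a and Hk2. The Tap1 match also lies inside the Psmb9 window and several of the 11 are related genes, so they are not independent. A match describes letters in the window and no binding was measured.

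MHC class I, which displays peptides made inside the cell, was higher as well, in its heavy chains and in the steps that make and carry peptides. Tap1 (chr17:34187553-34197225), a subunit of the peptide transporter, was at 3.12 and 3.69 in heterozygous and 21.6 and 16.2 in libraries labelled reactivated (2.17 ± 0.20, adjusted p = 0.0015). Its partner Tap2 was at 1.89 and 2.08 against 7.79 and 6.64 (1.46 ± 0.16, adjusted p = 0.0035). The immunoproteasome subunit Psmb8 was at 2.70 and 4.24 against 30.7 and 21.7 (2.61 ± 0.25, adjusted p = 0.0019), and Psmb9 at 2.01 and 2.83 against 18.1 and 12.3 (2.23 ± 0.22, adjusted p = 0.0024). These are far genes, so their reactivated and heterozygous values do not overlap by definition. Nlrc5, the class I counterpart of Ciita, was at 0.845 and 1.07 against 7.08 and 4.75 (1.80 ± 0.19, adjusted p = 0.0028).

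Of 28 class I genes tested 11 passed and were higher, 8 without reactivated 1 and 22 without reactivated 2, and none was lower. The class I heavy chains H2-Q6 (1.53 and 2.88 against 24.4 and 15.0), H2-K1 (79.7 and 114 against 319 and 247) and H2-D1 (71.1 and 96.2 against 254 and 201) were among them. The calls of H2-K1 and H2-D1 did not hold without reactivated 1 (adjusted p = 0.16 and 0.17) or without heterozygous 1 (0.13 and 0.16). B2m, the light chain shared by class I molecules, was at 82.1 and 201 against 528 and 395 and did not pass (1.82 ± 0.41, adjusted p = 0.099), but passed without heterozygous 2 (2.46, adjusted p = 0.0035), without reactivated 2 (0.048) and without either null G4 library (0.030 for both). Class I heavy chains are near-identical to each other, so reads may have been split between them by the counting.

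Interferon-induced GTPases, which attack the vacuoles of intracellular microbes, were raised in both libraries labelled reactivated. Gbp2 (chr3:142620602-142638008), a guanylate-binding protein, was at 0.787 and 1.31 in heterozygous and 13.9 and 8.82 in libraries labelled reactivated (2.57 ± 0.23, adjusted p = 0.0012). Iigp1, an immunity-related GTPase, was at 1.13 and 1.43 against 17.9 and 9.42 (2.63 ± 0.26, adjusted p = 0.0024). Igtp (chr11:58199556-58207591), of the same family, was at 2.90 and 4.29 against 25.8 and 14.3 (2.16 ± 0.28, adjusted p = 0.0086), and Tgtp1 at 0.135 and 0.106 against 5.56 and 2.51 (2.10 ± 0.27, adjusted p = 0.0081). In each of the 4 genes reactivated 1 was the higher library. Reactivated 2 was above both heterozygous ones, as the definition of far requires. Of 14 GTPases tested 10 passed and were higher, 6 without reactivated 1 and 13 without reactivated 2. Mx1, of the antiviral Mx family, was the 1 tested member with both reactivated values (1.87 and 1.27) below both heterozygous values (3.00 and 1.88). It did not pass (-0.41, adjusted p = 0.36). Tgtp1 and Tgtp2, like the guanylate-binding proteins, are close copies that may share reads.

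The promoters of Gbp2, Igtp and Tap1, from the same RefSeq table, are printed as the interferon-induced and class I members of the far higher genes that hold a motif. In Gbp2 (chr3:142620413-142620712, plus strand) and Igtp (chr11:58199306-58199605, plus strand) the capitals mark the core of the interferon-stimulated response element, GAAA followed after any pair of bases (NN) by GAAA, on either strand. In Tap1 (chr17:34187306-34187605, plus strand) they mark the Y box, read on the opposite strand.
Gbp2: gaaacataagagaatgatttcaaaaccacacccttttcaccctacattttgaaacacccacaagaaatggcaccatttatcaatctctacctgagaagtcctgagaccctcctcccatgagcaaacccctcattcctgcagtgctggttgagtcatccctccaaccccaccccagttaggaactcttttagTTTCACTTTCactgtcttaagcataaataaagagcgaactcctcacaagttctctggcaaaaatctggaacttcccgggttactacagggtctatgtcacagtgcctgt
Igtp: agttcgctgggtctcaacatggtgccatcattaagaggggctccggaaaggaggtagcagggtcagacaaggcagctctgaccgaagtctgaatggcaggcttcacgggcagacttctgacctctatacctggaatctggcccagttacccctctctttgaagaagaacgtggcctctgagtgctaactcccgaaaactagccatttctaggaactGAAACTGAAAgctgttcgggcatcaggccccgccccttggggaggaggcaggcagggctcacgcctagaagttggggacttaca
Tap1: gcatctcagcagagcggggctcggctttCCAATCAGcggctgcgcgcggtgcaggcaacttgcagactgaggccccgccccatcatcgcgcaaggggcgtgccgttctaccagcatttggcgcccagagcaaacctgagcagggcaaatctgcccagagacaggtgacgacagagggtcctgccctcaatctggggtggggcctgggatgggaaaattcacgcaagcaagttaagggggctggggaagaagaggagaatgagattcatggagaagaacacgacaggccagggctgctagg
The element begins 59 bases before the start in Gbp2 and 34 bases before it in Igtp, and the Tap1 box 222 bases before its start, inside the promoter window of Psmb9 on the other strand (chr17:34187281-34187580). The interferon element was in 3.44% of all promoters, in 3.57% of tested genes with a promoter and in 11 of the 79 far higher genes with one (13.9%). Those were Gbp2, Gbp3, Gbp7, Igtp, Irgm1, Irgm2, Tgtp1, Tgtp2, H2-T22, Phf11b and a predicted gene. Several of these are related genes too, so they are not independent.

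Far genes were grouped by their position. With a gap of at most 300 kb, 51 of the 129 far genes fell into 16 neighbourhoods. The largest, chr17:33996017-34316674 in the MHC, held 10 far genes of 14 tested, from H2-K1 to H2-Eb1, and chr17:35262730-35443773 held 5 of 7, from H2-D1 to H2-Q7. Both chromosome 11 clusters of immunity-related GTPases held 4 far genes, of 6 and 9 tested, and the Gbp cluster on chromosome 3 held 3 of 3. Each interval begins and ends at a far gene, so its share of far genes is raised by construction above the 1.13% of all tested genes. The number of neighbours that gene density alone would give was not tested. Neighbours of one family can share reads, so these counts are not independent.

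Of 36 tested genes of the wider antiviral program 3 passed, beside 1.27% of all tested genes. Near the heterozygous level were 20 of them, beside 85.5% of all tested genes. Both reactivated libraries were above both heterozygous ones in 23, beside 46.7%. Irf1, an interferon-induced transcription factor, was at 12.4 and 15.4 in heterozygous and 34.6 and 28.8 in libraries labelled reactivated (1.14 ± 0.21, adjusted p = 0.046), and Zbp1, a sensor of nucleic acids, at 3.21 and 4.20 against 7.31 and 8.19 (0.90 ± 0.17, adjusted p = 0.045). Both were among the 3 of 36 tested antiviral genes that passed (0 without reactivated 1 and 13 without reactivated 2), while 20 of the 36 were near the heterozygous level and Bst2, a tether of virus particles, did not pass (1.18 ± 0.25, adjusted p = 0.079). Neither call held without reactivated 1 (adjusted p = 0.125 for Irf1 and 0.0665 for Zbp1) or without heterozygous 1 (0.20 and 0.24). Irf1 and Zbp1 also missed the threshold without heterozygous 2 (0.068 and 0.061) and, narrowly, without either null G4 library. Ifng, the inducer of class II and of these GTPases, was listed at 0.121 or less in every unsorted library.

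Of 19 tested NF-kB factors and chemokines 2 passed, 0 without reactivated 1 and 10 without reactivated 2. Ccl28, an epithelial chemokine that draws antibody-secreting cells, was at 12.1 and 13.7 in heterozygous and 26.7 and 27.8 in libraries labelled reactivated (1.02 ± 0.19, adjusted p = 0.048). Ccl8, an attractant of monocytes, was at 0.0446 and 0 against 0.939 and 0.931 (0.92 ± 0.15, adjusted p = 0.027). Its values in both groups were under 1 RPKM, and it met the filter only through null G4, at 1.36 and 1.40. Neither call held without reactivated 1 (0.088 and 0.052), without heterozygous 1 (0.21 and 0.062) or without heterozygous 2 (0.11 and 0.097), and that of Ccl28 also needed both null G4 libraries. The inflammatory cytokine Tnf was at 0.166 and 0.283 against 1.85 and 0.950, and Nfkbiz, a nuclear regulator of NF-kB, at 5.08 and 5.95 against 14.7 and 9.97. Neither passed (adjusted p = 0.079 and 0.073 for Tnf and Nfkbiz), although both did without reactivated 2 (0.016 and 0.020). The chemokines Cxcl9 (0.125 and 0.066 against 1.63 and 0.386) and Cxcl10 (0.0374 and 0.268 against 1.15 and 0.261) are both induced by interferon gamma and were highest in reactivated 1. Cxcl9 did not pass (0.80 ± 0.28, adjusted p = 0.29) and Cxcl10 was too low for a test.

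Antimicrobial and oxidant genes were also among the far higher genes. Reg3b (chr6:78370657-78373466), a bactericidal lectin secreted by epithelium, was at 15.7 and 58.5 in heterozygous libraries and 1113 and 452 in ones labelled reactivated, with null G4 at 1941 and 2228. Reactivated 1 was above reactivated 2, and both lay between the heterozygous and null G4 values (4.49 ± 0.60 from heterozygous, adjusted p = 0.0096). Reg3g, its close relative, was at 2.55 and 13.0 against 88.2 and 64.6, with null G4 at 155 and 174 (3.44 ± 0.53, adjusted p = 0.020). The 2 genes may share reads, and without reactivated 1 their adjusted p were 0.091 and 0.16. The difference from null G4 did not pass for either (-1.55 and -1.11, adjusted p = 0.83 for both). Reg4, a lectin of secretory cells, ran the other way, at 157 and 212 against 108 and 61.8, and did not pass (-1.15 ± 0.32, adjusted p = 0.19).

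Nos2 (chr11:78920787-78960254), the inducible nitric oxide synthase, was at 0.240 and 0.549 in heterozygous and 7.36 and 7.50 in libraries labelled reactivated (2.60 ± 0.16, adjusted p = 0.00015). Duox2, which releases hydrogen peroxide into the lumen, was at 12.7 and 14.5 against 45.4 and 37.6 (1.54 ± 0.21, adjusted p = 0.010). Nox1, the superoxide-producing oxidase of the colon, was at 8.19 and 6.47 against 30.9 and 20.1 (1.65 ± 0.25, adjusted p = 0.018). The protease inhibitor Slpi was at 0.155 and 0.163 against 3.59 and 7.95 (2.47 ± 0.27, adjusted p = 0.0036), and Socs3, which restrains STAT3, at 1.39 and 1.09 against 4.12 and 3.86 (1.16 ± 0.14, adjusted p = 0.0078). All of these are far genes, so the groups do not overlap by definition. Of 18 tested acute phase and STAT3 type genes 6 passed and were higher, also 6 without reactivated 1 and 11 without reactivated 2. Slpi missed the threshold under median scaling (adjusted p = 0.080) and quantile normalization (0.069), and Nox1 without reactivated 1 (0.057).

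Of 9 tested surface proteins of the Ly6 and uPAR family 3 passed and were higher, also 3 without reactivated 1 and 4 without reactivated 2. All 3 lie on chromosome 15, in an interval (chr15:74994877-75222661) that is bounded by far genes. Ly6c1 (chr15:75044018-75048830) was at 0.225 and 0.158 in heterozygous libraries, 9.50 and 11.7 in null G4 and 8.78 and 9.19 in libraries labelled reactivated. The reactivated values were close together and some 47.0 times the heterozygous mean (3.07 ± 0.15, adjusted p = 9.4e-05). Ly6a, also called Sca-1 and a marker of regenerating gut epithelium, was at 13.8 and 15.6 against 156 and 141 (3.25 ± 0.22, adjusted p = 0.00028). Ly6g was at 1.63 and 0.675 against 9.29 and 28.2, with reactivated 2 the highest of all 6 libraries (3.05 ± 0.43, adjusted p = 0.013). Its call was lost under quantile normalization (adjusted p = 0.12) and median scaling (0.13). Ly6g is used to mark neutrophils, and the part of neutrophils in its difference was not tested. The neutrophil genes S100a8, S100a9, Csf3r and Cxcr2 were at 0.153 or less in every unsorted library. Of 12 neutrophil and mast cell markers 2 were tested and their summed RPKM was 13.2 and 13.3 in heterozygous and 20.8 and 35.9 in libraries labelled reactivated. That list contains Ly6g, and without it the sums were 11.6 and 12.6 against 11.5 and 7.74. Ly6e was at 32.8 and 33.4 against 70.7 and 59.8 and did not pass (0.95, adjusted p = 0.11). Members of the family are similar in sequence and may share reads. Upp1, a uridine phosphorylase and among the 12 highest far genes, was at 3.36 and 4.73 against 41.8 and 45.9 (3.16 ± 0.22, adjusted p = 0.00028).

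**Figure D2:**
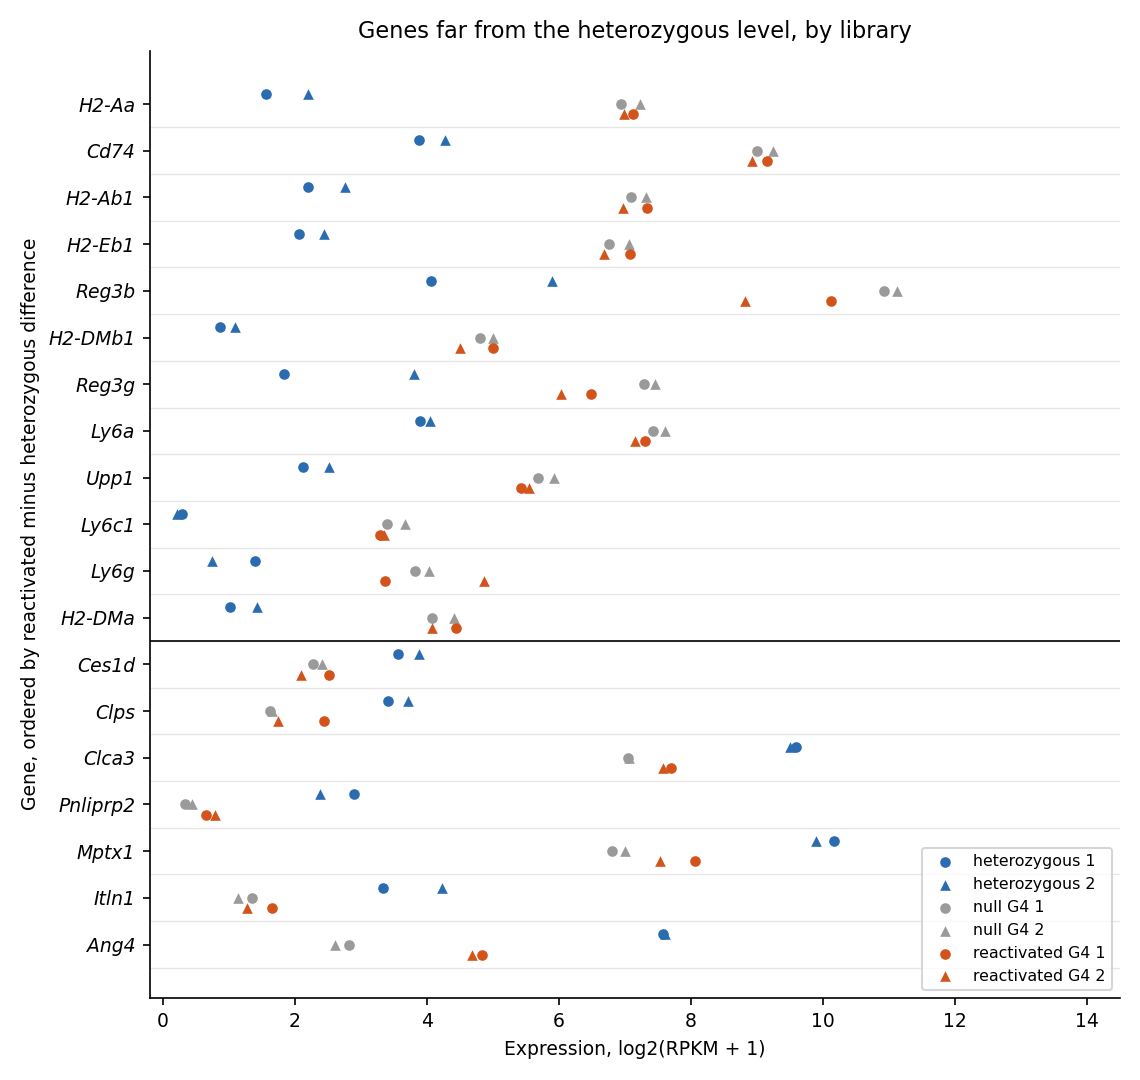
Expression in log2(RPKM + 1) on the x axis for the 12 highest and 7 of the lowest far genes (rows) in each of the 6 unsorted libraries, circles for replicate 1 and triangles for replicate 2. In every row both reactivated points (orange) lie on the same side of both heterozygous points (blue), as the definition of far requires. Of the genes shown, only Ang4 passed against null G4 (grey, limma adjusted p = 0.018). In other rows, such as Reg3b and Mptx1, the reactivated points also stand apart from both null G4 points without passing.

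Far lower genes were fewer and were led by products of deep crypt secretory cells. Ang4 (chr14:51763878-51773590), an antimicrobial angiogenin, was at 190 and 195 in heterozygous and 27.7 and 24.8 in libraries labelled reactivated, and fell by 2.83 on the log2 scale (SE 0.20, adjusted p = 0.00031). Null G4 was lower still, at 6.04 and 5.09, so that libraries labelled reactivated stood between the groups, 2.05 above null G4 (adjusted p = 0.018). That difference from null G4 did not pass under quantile normalization. Itln1, a lectin that binds microbial sugars, was at 9.10 and 17.7 against 2.15 and 1.41 (-2.32 ± 0.28, adjusted p = 0.0064). Mptx1, a mucosal pentraxin, was at 1145 and 954 against 265 and 183 (-2.24 ± 0.28, adjusted p = 0.0081), with null G4 at 110 and 126.

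Of 14 tested deep crypt genes 3 were lower and 1 higher, the same counts as without reactivated 1, and 4 and 2 without reactivated 2. The higher one was Pla2g2a, at 4.12 and 3.42 against 17 and 11.9 (1.68 ± 0.21, adjusted p = 0.0073). It is named for a secreted phospholipase but annotated as a polymorphic pseudogene, so working enzyme cannot be assumed. Spink4, abundant in these cells and in goblet cells, was at 736 and 723 against 847 and 559 and did not pass (adjusted p = 0.86). The Paneth cell defensin gene Defa24 was at 7.23 and 56.6 in the heterozygous libraries and 2.57 and 2.45 in the ones labelled reactivated. Its 2 heterozygous values were far apart, and it did not pass (-2.63, adjusted p = 0.17) with all 6 libraries. Left without heterozygous 1 or without heterozygous 2, the difference was -4.04 or -1.23 and passed (adjusted p = 4.7e-06 and 0.027), each resting on 1 heterozygous library.

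Other far lower genes were Clca3, Pnliprp2, Clps and Ces1d. Clca3, a secreted goblet cell protein, was at 770 and 724 against 208 and 190 (-1.90 ± 0.24, adjusted p = 0.0081). The lipase gene Pnliprp2 was at 6.43 and 4.18 against 0.569 and 0.720 (-1.92 ± 0.19, adjusted p = 0.0024), and the colipase gene Clps at 9.64 and 12.1 against 4.41 and 2.35 (-1.47 ± 0.23, adjusted p = 0.021). Ces1d, a carboxylesterase, was at 10.8 and 13.7 against 4.70 and 3.26 (-1.42 ± 0.19, adjusted p = 0.012). For all 4 the libraries labelled reactivated lay under both heterozygous values, as the definition of far requires.

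Passing counts for the secretory and absorptive lineages are to be read beside the 1.27% of all tested genes. Of 31 tested goblet cell genes 3 were higher, 1 without reactivated 1 and 6 without reactivated 2. Muc1, a membrane mucin, was at 0.538 and 0.323 against 1.79 and 2.28 (1.09 ± 0.16, adjusted p = 0.017). Muc13, another membrane mucin, was at 94.9 and 132 against 284 and 313 (1.41 ± 0.27, adjusted p = 0.049), and Sval1, of the seminal vesicle antigen family, at 31.1 and 35.3 against 83.3 and 83.8 (1.31 ± 0.21, adjusted p = 0.027). The last 2 calls did not hold without reactivated 1 (0.13 and 0.070) or without heterozygous 1 (0.16 and 0.10), and that of Muc1 not without heterozygous 2 (0.067). Muc2, the gel-forming mucin of goblet cells, was at 2210 and 2150 against 2346 and 1692, with a 95% interval of -0.77 to 0.51 around -0.13. The mucus protein Fcgbp was at 442 and 383 against 200 and 234 and did not pass (-0.92 ± 0.25, adjusted p = 0.17).

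None of 10 tested tuft cell genes passed, with 8 of the 10 below both heterozygous values in both libraries labelled reactivated against 4.42% of all tested genes. Sh2d6, an adaptor restricted to tuft cells in gut epithelium, was at 3.14 and 3.65 against 1.83 and 1.67 (-0.68 ± 0.14, adjusted p = 0.083) and the taste channel Trpm5 at 2.44 and 2.54 against 1.76 and 1.36 (-0.45, adjusted p = 0.27). Both passed under median scaling (adjusted p = 0.049 and 0.046). Of 14 enteroendocrine genes Tac1, the substance P precursor, was the 1 that passed (also 1 without reactivated 1, and 7 without reactivated 2), at 0.351 and 0.346 against 2.44 and 1.92 (1.23 ± 0.15, adjusted p = 0.0073). The hormone genes Insl5 (8.96 and 8.05 against 27.4 and 14.4) and Pyy (13.1 and 14.7 against 34.0 and 21.8) did not pass (adjusted p = 0.16 and 0.17).

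None of 37 tested surface colonocyte genes passed, and 18 of them were near the heterozygous level, beside 85.5% of all tested genes. In 10 of the 37 both libraries labelled reactivated lay between the heterozygous values, beside 5.69% of all tested genes. The summed RPKM of the list was 2109 and 5480 in heterozygous and 2911 and 3002 in libraries labelled reactivated. Without reactivated 2 there were 2 higher. The butyrate transporter Slc5a8 had the smallest p, at 25.4 and 24.9 against 48.4 and 57.0 (1.03 ± 0.22, adjusted p = 0.075). Of 23 stem and crypt base genes 17 were near and 2 were higher (0 without reactivated 1 and 6 without reactivated 2), Nox1 and Anxa1, an anti-inflammatory annexin. Anxa1 was at 9.05 and 9.04 against 21.9 and 21.0 (1.16 ± 0.19, adjusted p = 0.028), and its call did not hold without reactivated 1 or without either heterozygous library (0.074, 0.088 and 0.095). Lgr5, the stem cell receptor, was under the level for a test at 0.928 and 0.813 against 0.602 and 0.453. None of 15 Wnt targets and none of 15 Notch and fate factors passed, with 13 and 14 of them near. Without reactivated 2, 2 and 5 of them were higher. The 10 epithelial markers were all tested and none passed, with Cdh1 at 83.0 and 87.4 against 125 and 146 and a summed RPKM of 2019 and 2697 against 3426 and 3727.

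**Figure D3:**
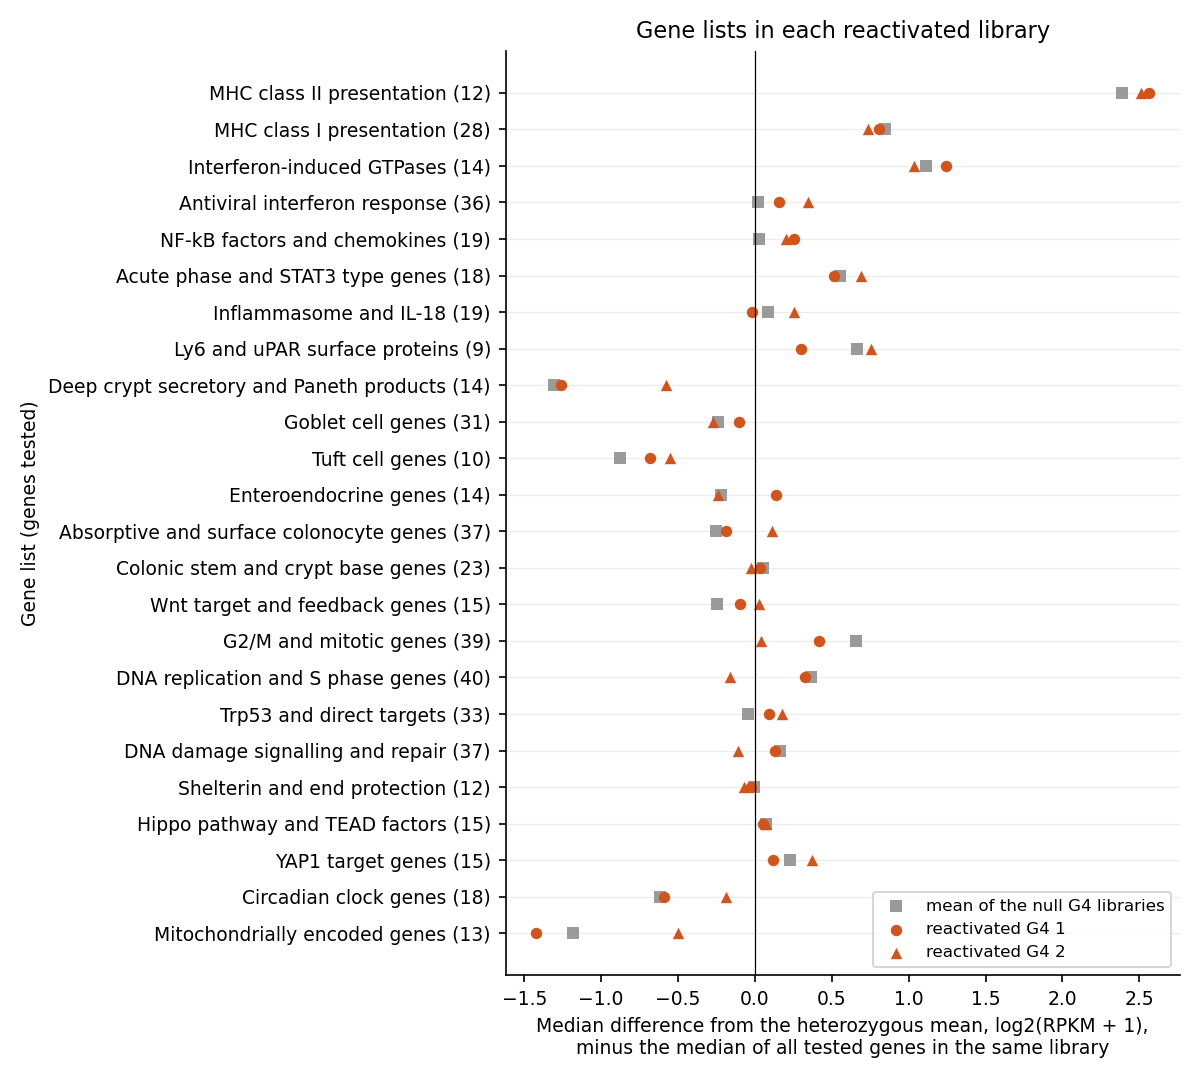
For 24 gene lists (rows, genes tested in brackets), the median difference from the heterozygous mean, less the median of all tested genes, in log2(RPKM + 1) on the x axis. MHC class II lies at 2.56 and 2.51 in reactivated G4 1 and 2 (orange circle and triangle), whereas mitotic genes lie at 0.42 and 0.04, and grey squares give the mean of the null G4 libraries against the same heterozygous mean.

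Telomere damage signals through Trp53, and its targets divided. Phlda3 (chr1:135766119-135769136), a Trp53-induced inhibitor of AKT, was at 0.466 and 0.355 in heterozygous libraries, 1.43 and 1.32 in null G4 and 3.11 and 2.18 in libraries labelled reactivated. Both reactivated values were above all the others, with a log2 difference from heterozygous of 1.36 ± 0.17 (adjusted p = 0.0079). The difference from null G4, 0.61, did not pass (adjusted p = 0.83). Ephx1, an epoxide hydrolase, was at 3.11 and 3.13 against 11.5 and 7.30 (1.31 ± 0.22, adjusted p = 0.029), a call lost without reactivated 1 (0.059) and without heterozygous 2 (0.053). These were the 2 of 33 tested targets that passed, and 22 of the 33 were near. Without reactivated 1 there was 1 and without reactivated 2 there were 11. Cdkn1a, the cell cycle inhibitor p21, was at 7.98 and 14.9 against 12.3 and 23.7, with overlapping groups (0.60, 95% interval -0.18 to 1.37). Trp53 itself was at 5.10 and 4.58 against 5.36 and 4.52 (0.02, interval -0.34 to 0.39). Gdf15, a stress-induced cytokine, was at 0.809 and 0.561 against 2.33 and 1.58 and did not pass (0.80, adjusted p = 0.10).

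Among genes of telomeres and DNA repair none passed. All 12 tested shelterin and end protection genes were near, as were 10 of 12 telomerase components and 36 of 37 DNA damage signalling and repair genes, beside 85.5% of all tested genes. Without reactivated 2, 1 shelterin gene, 5 telomerase components and 18 DNA damage genes were higher, and without reactivated 1 none. Tert, given above, was too low to be among the tested components. Terf2ip, which binds TRF2 at chromosome ends, was at 2.65 and 2.49 against 3.60 and 2.95 (0.26, 95% interval -0.08 to 0.60). Terc, the RNA template of telomerase, was at 8.57 and 4.65 in heterozygous libraries, 4.59 and 3.40 in null G4 and 5.47 and 5.85 in libraries labelled reactivated. The log2 difference from heterozygous was -0.14 (interval -0.71 to 0.42). Terc was named because both reactivated values lay between the heterozygous ones, so that position is a description. Of 32 death genes 3 passed (0 without reactivated 1 and 13 without reactivated 2), Zbp1, the necroptosis kinase Ripk3 (4.82 and 5.51 against 11.9 and 10.03, adjusted p = 0.041) and the death ligand Tnfsf10 (1.73 and 2.49 against 5.78 and 5.03, adjusted p = 0.024). Ripk3 and Tnfsf10 missed the threshold without reactivated 1 (0.077 and 0.081) and without heterozygous 1 (0.19 and 0.12), and Ripk3 also without heterozygous 2 (0.096) or either null G4 library (0.057 and 0.058).

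The series title names YAP1, a coactivator restrained by the Hippo kinases, and inflammasome products. Yap1 was at 3.72 and 3.57 in heterozygous and 5.41 and 4.06 in libraries labelled reactivated, and did not pass (0.29 ± 0.17, adjusted p = 0.37). None of 15 Hippo genes passed, 13 were near, and 3 were higher without reactivated 2. Of 15 tested YAP1 targets Ly6a and Anxa1, both given above, passed (3 without reactivated 1 and 7 without reactivated 2), and Anxa3 (18.0 and 15.1 against 31.7 and 39.0) did not (1.05 ± 0.21, adjusted p = 0.070). Il18 was at 11.6 and 14.0 against 15.8 and 26.5 (0.64, 95% interval 0.03 to 1.25, adjusted p = 0.34) and its processing enzyme Casp1 at 25.7 and 37.9 against 52.0 and 44.1 (0.60, interval 0.02 to 1.18, adjusted p = 0.34). Il18bp, which neutralizes interleukin 18, was the 1 of 19 tested inflammasome genes that passed, at 2.09 and 2.03 against 7.47 and 4.79 (1.19 ± 0.19, adjusted p = 0.026). It missed the threshold without heterozygous 2 (0.064). Without reactivated 1, 2 genes of that list were higher, and without reactivated 2, 3 were higher and 3 lower.

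Cell division genes split the libraries labelled reactivated. Mki67, a marker of cycling cells, was at 20.4 and 19.6 in heterozygous libraries, 40.1 and 41.7 in null G4 and 31.9 and 22.7 in libraries labelled reactivated, so reactivated 2 sat just above the heterozygous level and reactivated 1 nearer to null G4 (0.41 ± 0.22, adjusted p = 0.36). Of 39 mitotic genes none passed and 32 were above both heterozygous libraries, beside 46.7% of all tested genes. Without reactivated 2, 36 of the 39 passed beside 20.6% of all tested genes, and in null G4 34 of them were higher than in the same heterozygous libraries (in that comparison 5.55% of all tested genes passed, 4.97% higher and 0.576% lower). That comparison had 636 genes passing, 5742 without reactivated 2 and 5722 without reactivated 1. The cause of that change was not tested. Kif23, a motor of cell division, was at 5.26 and 5.70 against 10.8 and 6.85 and Tpx2, a spindle factor, at 3.91 and 3.78 against 6.74 and 4.60. Of 40 S phase genes none passed, 34 without reactivated 2. Rrm1, a subunit of ribonucleotide reductase, was at 7.55 and 8.21 in heterozygous libraries and at 18.7 and 8.37 in ones labelled reactivated, and the chaperone Hsp90b1 at 33.0 and 37.0 against 79.8 and 43.3.

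Some circadian clock genes showed the same split, which goes with sex and could not be told apart from it. Dbp, a clock output, was at 6.18 and 4.89 in heterozygous libraries, 0.293 and 0.215 in null G4 and 0.486 and 3.33 in libraries labelled reactivated. Arntl, the clock activator in antiphase to it, was at 1.49 and 2.50, 10.7 and 11.6, and 9.11 and 2.83 in the same order. The repressor Nr1d1 was at 8.02 and 8.80 in heterozygous libraries, 2.31 and 2.15 in null G4 and 2.85 and 12.2 in libraries labelled reactivated. In each of these genes reactivated 1 resembled null G4 and reactivated 2 the heterozygous libraries. The clock gene Per2 did not split in this way, and Clock did not do so clearly. Per2 was at 6.53 and 4.67 in heterozygous libraries, 2.46 and 2.60 in null G4 and 3.05 and 3.17 in libraries labelled reactivated. Clock was at 6.57 and 6.81, 13.8 and 14.8, and 12.4 and 10.2 in the same order. For Per2 both reactivated values lay nearer to null G4. For Clock reactivated 1 lay nearer to null G4, and reactivated 2 lay about midway between the heterozygous and null G4 values. None of 18 clock genes passed. Without reactivated 2 there were 5 higher and 8 lower, and without reactivated 1 none. No source used here gives the hour of collection. H2-Aa, Ly6c1 and Ang4 showed no such split, with reactivated 1 and 2 close to each other in the values above.

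**Figure D4:**
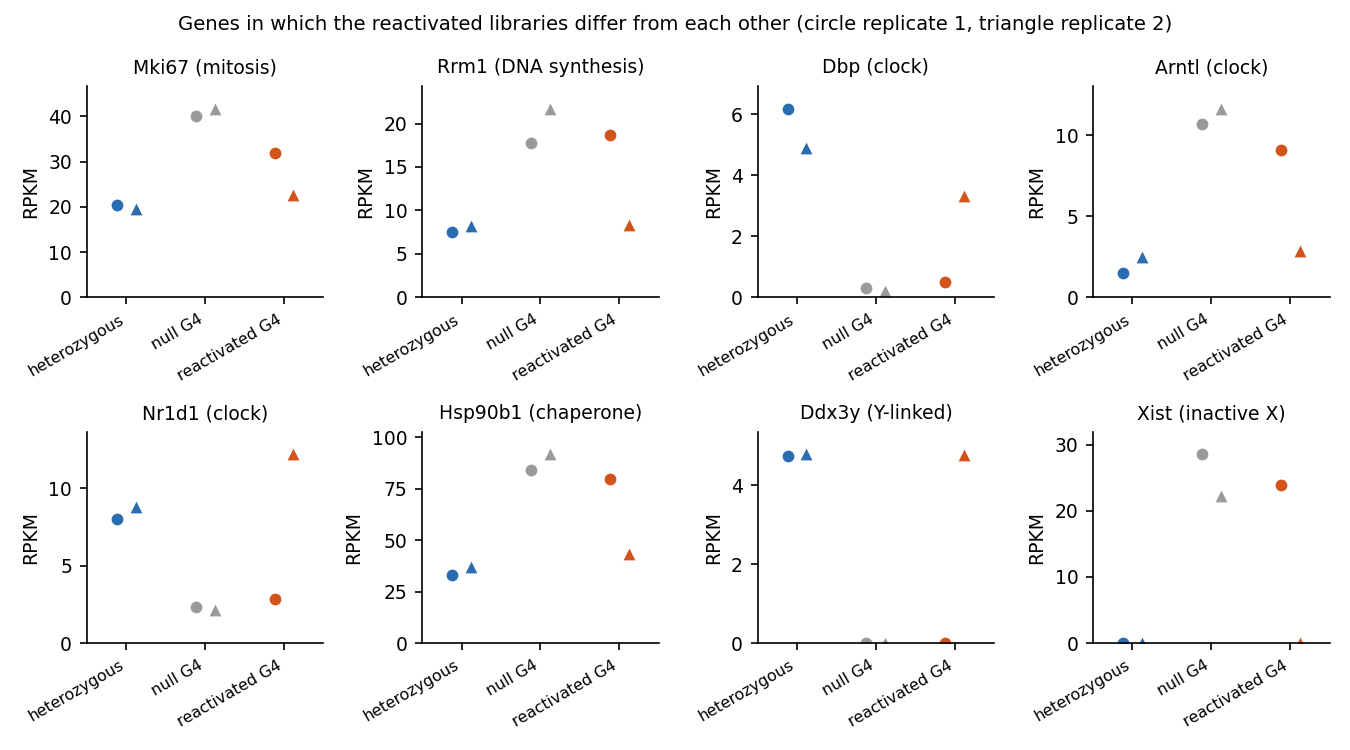
RPKM (y axis, from 0) of 8 genes in the heterozygous (blue), null G4 (grey) and reactivated G4 (orange) libraries, circles for replicate 1 and triangles for replicate 2. Reactivated 1 lies by null G4 and reactivated 2 by the heterozygous libraries for Rrm1, Dbp, Arntl, Nr1d1, Hsp90b1 and the sex-linked genes, while for Mki67 reactivated 1 falls between the groups.

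The genes named as lying inside the heterozygous range were picked because null G4 differed most from heterozygous, and they are a description. Apoc2, an apolipoprotein that activates lipoprotein lipase, was at 1.41 and 3.17 in heterozygous libraries, 0.831 and 0.749 in null G4 and 2.52 and 1.80 in libraries labelled reactivated. Scand1, a small zinc finger family protein, was at 8.69 and 3.57, 3.59 and 2.42, and 6.13 and 4.64 in the same order. Both reactivated values lay between the heterozygous ones, which were themselves far apart. Lsm5, Slc30a1, Treh, Ugdh, Gtf2b, Atp2b1, Frat1 and Terc, given above, followed the same rule. Their log2 differences from heterozygous lay between -0.30 for Ugdh and 0.34 for Slc30a1. None of these genes passed in null G4 against heterozygous, the smallest adjusted p being 0.060 for Apoc2.

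Set against null G4, 3 genes passed (0.0262% of those tested), 2 higher (0.0174%) and 1 lower (0.00872%). Ang4 was among them, and the others are predicted genes named here after their values were seen. Gm9762 was at 7.91 and 7.07 in heterozygous libraries, 1.02 and 0.804 in null G4 and 8.74 and 9.63 in libraries labelled reactivated. Gm7488 was at 1.60 and 2.40, 3.56 and 3.59, and 0.162 and 0.143, outside both other groups. Of the 129 far genes 2 passed against null G4, both among the lower ones, and none of the 114 higher ones did. A p that missed the threshold does not show that the libraries labelled reactivated and null G4 were alike, and both comparisons with heterozygous use the same 2 heterozygous libraries.

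RNA of blood and stromal cells was low throughout. Of 14 T and NK cell markers 3 were tested, with a summed RPKM of 6.08 and 17.9 in heterozygous and 6.97 and 2.57 in libraries labelled reactivated, and Cd3e at 0.476 and 1.30 against 0.436 and 0.0608. Ptprc, the leukocyte surface phosphatase CD45, was at 1.17 and 2.58 against 1.18 and 0.520 and did not pass (-0.62, adjusted p = 0.34). Of 12 B and plasma cell markers 2 were tested, with sums of 5.02 and 5.45 against 10.9 and 17.3. Igha, the IgA heavy chain, was at 2.05 and 1.45 against 4.88 and 7.34 (1.36 ± 0.21, adjusted p = 0.020), a call lost without heterozygous 2 (0.059) and under median scaling (0.20). Of the endothelial markers none reached the level for a test.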

How the data were processed

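RNA of unsorted crypts was extracted with a Qiagen RNeasy kit and made into TruSeq libraries, per the labels' protocols. The authors deposited a table of RPKM values; reads were aligned to mm10 with STAR 2.3.0e, per the submitters' processing notes. The counter, annotation and strand setting are not stated in the sources at hand. Gene positions come from GENCODE M21 on the same assembly. Ensembl gene identifiers matched for 98.0% of genes.

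RPKM values were compared as log2(RPKM + 1) with limma 3.58.1 (R 4.3.3, empirical Bayes with trend), the 6 unsorted libraries fitted together. Tested were 11464 genes with at least 1 RPKM in at least 2 libraries. Genes under 1 RPKM in both heterozygous libraries, such as Ly6c1, Nos2, Slpi, Tgtp1, Ubd and Lrg1, met that filter only through the other groups. Pnliprp2 met it only through the heterozygous libraries. P-values were Benjamini-Hochberg adjusted over all tested genes, with a threshold of 0.05. On simulated data over 11464 genes for reactivated against heterozygous, 53% of genes changed by 1 and 87% of genes changed by 2 on the log2 scale were recovered, with 12 false calls of 152. Tables and figures used Python 3.11.15, pandas 2.3.3, numpy 2.4.6 and matplotlib 3.10.9.

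The named genes were a fixed set (such as Tert, H2-Aa, Ly6c1 and Phlda3), the 12 highest far genes and up to 12 of the lowest (8 could be named), 10 genes within the heterozygous range, and in each list 2 to 4 of the 4 members of smallest p. Predicted genes, clone names and receptor segments were counted and not named, except Gm9762 and Gm7488, chosen after their values were seen, and some genes are not reported here. Lists, members and comparisons were chosen with earlier results of these data known. Genes named outside the rule after their values were seen include Nlrc5, Tap2, H2-K1, H2-D1, B2m, the RFX subunits, Ctss, Ifi30, Mx1, Defa24 and Spink4. They also include Cxcl9, Cxcl10, the clock genes Arntl and Nr1d1, and all genes in the closing section. Alternatives changed the pseudocount, filter, scaling, trend, replicate block, a term for sex and the libraries included.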

Additional observations from a re-analysis of the deposited data

How the results depend on the processing

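Every far gene kept its direction in every setting in which it was tested. Of 62 genes that passed and were chosen by the naming rule or added to it, 13 passed in all 17 settings: H2-Aa, Cd74, H2-Ab1, H2-Eb1, H2-DMb1, Ciita, Nos2, Ly6a, Ly6c1, Upp1, Ang4, Cldn8 and Ubd. Without a filter on low values 49 of them missed the threshold, with quantile normalization 20, with median scaling 18 and with a term for sex 18. That term rests on reactivated 1 against reactivated 2.

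The 146 passing genes became 22 without the filter, 88 with quantile normalization and 94 with median scaling. The share of calls that were higher went from 88.4% to 73.9% and 75.5% under the last pair of settings. The 129 far genes became 49 with a pseudocount of 5, 14 without the filter, 67 with quantile normalization and 68 with median scaling. Near genes numbered 22993 without the filter and 4897 at a minimum of 5 RPKM, where other numbers of genes were tested. Against null G4 the 3 genes became 0 without the filter (883 at an unadjusted p under 0.05), 0 with quantile normalization (354 likewise) and 6 with a term for sex. Null G4 against heterozygous went from 636 to 21 without the filter, 2188 at 5 RPKM, 237 and 322 with quantile normalization and median scaling, 283 rescaled without mitochondrial genes and 69 with a term for sex. Leaving out 1 library at a time gave 124 to 2344 passing genes, 116 to 299 far genes, 4 to 185 genes against null G4 and 181 to 5742 for null G4 against heterozygous. The highest of these were without reactivated 2, except 185, which was without reactivated 1. The cause of these changes was not tested.

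The replicate numbers are shared only as numbers, since deviations of same-numbered libraries correlated at -0.07, 0.22 and -0.12 across the pairs of groups. With the replicate block 264 genes passed against heterozygous (211 higher, 53 lower), 9 against null G4 and 1317 for null G4 against heterozygous.

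Small differences that changed sign were the following, on the log2 scale. Trp53 was at -0.21 with quantile normalization, -0.19 with median scaling, -0.069 rescaled and -0.079 with a term for sex, and ranged from -0.079 to 0.13 with 1 library left out. Rfx5 was at -0.0094, -0.12 and -0.016 with quantile normalization, median scaling and the sex term (range -0.016 to 0.19). Rfxank was at -0.046 with median scaling. Rfxap was at -0.043 with median scaling and -0.042 with the sex term (range -0.042 to 0.38). Muc2 was at 0.25 with quantile normalization (range -0.37 to 0.11), Spink4 ranged from -0.39 to 0.22, and Nr1d1 was at 0.49 with the sex term (range -1.29 to 0.49). With 2 libraries a group, a lone library left in a group is assumed to vary like the others, and low genes are limited by their few reads. The fit of the 4 libraries alone does not apply to the comparisons with null G4.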

Other observations

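Several far higher genes belong to no list described above. Cldn8, a barrier-forming claudin of the distal colon, was at 4.14 and 3.98 RPKM in heterozygous libraries, 30.5 and 34.9 in null G4 and 22.9 and 21.2 in libraries labelled reactivated, clear of the heterozygous values (2.18 on the log2 scale, limma adjusted p = 0.00074). Atp12a, the colonic proton-potassium pump, was at 4.83 and 2.67 against 19.5 and 48.5 in libraries labelled reactivated (2.78, adjusted p = 0.013). Trpv6, a calcium channel, was at 0.179 and 0.271 against 1.82 and 6.10 (1.87, adjusted p = 0.048). For Atp12a and Trpv6 reactivated 2 was the highest of all 6 libraries, and median scaling (0.13 and 0.25) or quantile normalization (0.14 and 0.22) ended both calls. Ubd, a ubiquitin-like modifier induced by interferon gamma and TNF, was at 0.244 and 0.243 against 6.00 and 5.28 (2.41, adjusted p = 0.00015). Lrg1, a secreted glycoprotein of the acute phase, was at 0.109 and 0.0418 against 3.42 and 6.75 (2.44, adjusted p = 0.0022), and missed the threshold with quantile normalization (0.051) and median scaling (0.059).

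Hif1a, the hypoxia-inducible factor, was at 6.06 and 6.56 in heterozygous and 13.1 and 15.6 in libraries labelled reactivated (1.07, adjusted p = 0.029), and the glycolytic enzyme Hk2 at 12.9 and 14.4 against 30.5 and 27.4 (1.03, adjusted p = 0.047). The call of Hif1a did not hold without heterozygous 1 (0.12) or heterozygous 2 (0.085) or under median scaling (0.13). That of Hk2 was lost in 11 of 17 settings, among them without heterozygous 1 (0.20), heterozygous 2 (0.12), reactivated 1 (0.10) or either null G4 library (0.077 for both). Of 14 tested posterior Hox and region factors none was higher. Hoxd13, of the most posterior group, was at 1.02 and 1.22 against 3.18 and 8.44 and did not pass (1.57, adjusted p = 0.073). It passed with the 4 heterozygous and reactivated libraries alone (limma adjusted p = 0.0062), and not under quantile normalization or median scaling. Its difference was 2.16 without reactivated 1 and 0.98 without reactivated 2. Of 31 cholesterol synthesis genes none passed and 24 were above both heterozygous values in both libraries labelled reactivated, beside 46.7% of all tested genes. Without reactivated 2, 8 of them passed (20.6% of all tested genes did). None of 13 genes encoded by mitochondrial DNA passed and 11 were below both heterozygous values, beside 4.42% of all tested genes. Without reactivated 2, 5 of them were lower. Relative to the median of all tested genes, their median difference was -1.42 in reactivated 1 and -0.50 in reactivated 2.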
